A study of Mus musculus with 25 samples.

Results

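Expression was compared across all genes between liver tumors and the liver around them. The 14 libraries compared were the 6 samples titled as tumors (DEN T-WD) and the 8 titled as peritumoral liver (DEN PT-WD), chosen by those titles from 25 RNA sequencing libraries in 5 groups. All 14 came from male C57BL/6J mice, an inbred strain, that carried no engineered allele in the labels, had received diethylnitrosamine (DEN) at 25 mg/kg into the peritoneum at 2 weeks of age and ate a western diet from weaning. Harvest for RNA sequencing was at 36 weeks of age, and tissue harvest is elsewhere given as 36 to 39 weeks. Carcinogen and diet were the same in both groups. Neither the number of mice nor which tumor and peritumoral library came from the same animal is given in the labels, so each p-value measures the spread between these samples.

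DEN is converted in hepatocytes by cytochrome P450 enzymes, above all Cyp2e1, into an agent that alkylates DNA, and tumors grow out of single mutated hepatocytes over months. A normal hepatocyte carries a program set by its place in the lobule. Cells next to the central vein receive Wnt signals and express glutamine synthetase and drug-metabolizing cytochromes, while cells next to the portal vein take on urea synthesis and breakdown of amino acids. Liver tumors can lose parts of this program, reopen genes of the fetal liver, attract other blood vessels and macrophages, and switch on growth factor or stress signalling.

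Each library held 21530046 to 38074390 counts, and 15625 genes passed the filter on low counts. Values below are normalized counts, which are RSEM expected counts scaled to library size and the composition of each library (TMM), and they are not corrected for gene length, so that they compare samples and not genes. A gene was called when its edgeR adjusted p was at most 0.05 and its log2 fold change, tumor minus peritumoral, was at least 1 in size. Liver markers were high in every library, which does not tell tumor from peritumoral liver: Alb, the main plasma protein of hepatocytes, spanned 783642 to 1723287 (median 1362927) normalized counts in peritumoral liver and 637049.5 to 3355747 (median 2829620.0) in tumors, and Hnf4a, the hepatocyte identity factor, 10517 to 14134 (median 11299) and 8277 to 13544 (median 12709). Tumor 5 lay below the peritumoral range in both genes. Genes of pancreas acinar cells, a neighbouring organ, summed to 7.41 to 7429 CPM (counts scaled to a common library size) in peritumoral liver and 16.9 to 1884 in tumors, and none of the 19 tested was called, with a median log2 fold change of -2.12. In bulk tissue, fewer cells of a type and less RNA per cell cannot be told apart.

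A single tumor stood apart from the others. Tumor 5 (DEN T-WD replicate 5) held 10.5% of its counts in mitochondrial genes, against 4.81% to 6.06% in the other tumors and 7.2% to 9.69% in peritumoral liver. Its 10 most abundant genes took 18.9% of all counts, against 22.6% to 26.9% in the other tumors and 18% to 22% in peritumoral liver. The part of these library differences in the results was not tested, and results that rest on tumor 5 are given with and without it.

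In the 14 libraries, 4.81% of the genes tested were called higher in tumors and 3.09% lower, 7.9% in all, and the median log2 fold change of all genes tested was 0.01. Most of these calls did not come from complete separation. In 212 of the genes called higher (28.2% of them) all 6 tumors lay above all 8 peritumoral libraries, and in 227 of those called lower (47%) all 6 lay below, where 4.29% and 5.18% of all genes tested separated in the same way. Over all genes tested these 2 shares make 1479 genes, and 2972 separated when tumor 5 was left out. When the 11 livers of the other groups (untreated mice on either diet, and DEN-injected mice on the control diet) were added to the peritumoral ones, 181 of the 212 still lay above and 150 of the 227 below every one of the 19 nontumor libraries. Leaving out each of the 14 libraries in turn kept 495 of the calls higher and 315 of the calls lower in every fit. The library whose removal cost most calls was tumor 5, without which 188 called genes were lost, 122 of them higher and 66 lower, while 106 others came in higher and 136 lower. That fit called 4.74% of its genes higher and 3.56% lower.

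To place single libraries on the tumor program, each was left out, the genes called without it were taken, and its value was scaled so that 0 is the peritumoral mean and 1 the tumor mean. The other 5 tumors scored 0.91 to 1.05. Tumor 5 scored 0.50, and the peritumoral libraries -0.32 to 0.38, so that every tumor stayed above every peritumoral library, tumor 5 by the narrowest margin. Livers of the other 3 groups scored -0.47 to -0.19 on the genes called with all libraries, below 7 of the 8 peritumoral ones.

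**Figure D1:**
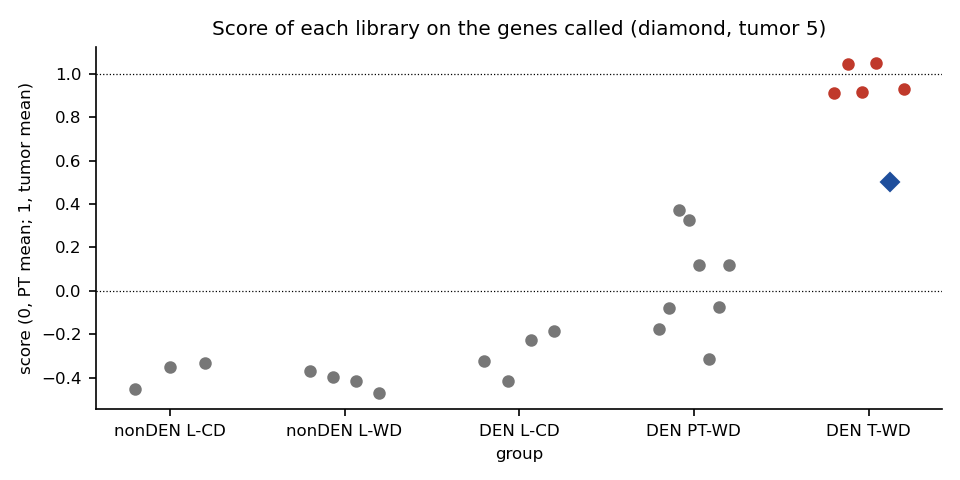
Score of each library on the genes that differed between tumors and peritumoral liver, by group, where 0 is the peritumoral mean and 1 the tumor mean, dotted lines mark both and each point is 1 library. Tumor 5, the diamond at 0.50, lies between the 8 peritumoral libraries, at most 0.38, and the 5 other tumors, at least 0.91.

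The part of the program shared by all 6 tumors included a lower central-vein program. Of 20 pericentral Wnt targets tested, 12 fell and none rose, 14 lay below the peritumoral range in all 6 tumors, and the median log2 fold change was -1.19. Without tumor 5, 11 were called lower. Glul, glutamine synthetase (chr1:153899944-153909723), spanned 24921 to 35562 (median 33829) normalized counts in peritumoral liver and 7318 to 14820.4 (median 13725) in tumors. The fitted difference of Glul was -1.34 ± 0.14 (SE) on the log2 scale, adjusted p = 4.1e-07. Oat, ornithine aminotransferase (chr7:132557478-132576398), spanned 12979 to 23741 (median 17559) and 3629 to 5879 (median 5077). On the log2 scale Oat changed by -1.82 ± 0.16 (SE), adjusted p = 3.88e-08. The fall ran through genes of the pathway itself as well as enzymes. Lgr5, the receptor for R-spondins that strengthens Wnt signals, spanned 140.5 to 247 (median 184) in peritumoral liver and 54.6 to 98.1 (median 67) in tumors (-1.39 ± 0.17, adjusted p = 2.77e-06). Notum, a secreted Wnt inhibitor that is itself a Wnt target, spanned 239 to 427 (median 280.3) in peritumoral liver and 119 to 169.7 (median 139) in tumors (-1.16 ± 0.13, adjusted p = 6.44e-07). Sp5, a Wnt-induced transcription factor, stood at 17.9 to 32.4 (median 23.2) against 6.53 to 13 (median 9.95) (-1.22 ± 0.23, adjusted p = 0.000213), and Slc1a2, a glutamate transporter, at 5340.4 to 8156 (median 6444) against 1221 to 2648 (median 2265) (-1.63 ± 0.13, adjusted p = 2.19e-08). None of the 4 overlapped between tissues. Axin2, the feedback inhibitor, was below the peritumoral range in all 6 tumors too but missed the fold minimum, at -0.92 ± 0.19, adjusted p = 0.00059. Rspo3, the R-spondin ligand made by central-vein endothelium, spanned 174 to 241 (median 217) in peritumoral liver and 85.5 to 118 (median 108) in tumors (-1.02 ± 0.1, adjusted p = 2.12e-07), and was at -0.96 without tumor 5.

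Drug metabolism followed the same direction. Of 21 drug-metabolizing cytochromes, 12 fell and 1 rose, and 9 were below the peritumoral range in every tumor (median log2 fold change -1.29). Cyp2e1, the enzyme that activates DEN, spanned 120511 to 212827 (median 159618) in peritumoral liver and 25605 to 67958 (median 54511) in tumors. Cyp2e1 differed by -1.67 ± 0.17 (SE) on the log2 scale, adjusted p = 1.8e-07. Cyp3a11, a broad drug oxidase, spanned 50556 to 109569 (median 78419) in peritumoral liver and 20742 to 37467 (median 30192) in tumors (-1.41 ± 0.2, adjusted p = 9.23e-06). Cyp2c29 and Cyp2c37 were among the 10 largest shared decreases, at -1.99 ± 0.24 (SE) and -2.0 ± 0.36, and Cyp2c50 was at -1.81 ± 0.27. These 3 share 4.25%, 30.1% and 18.3% of their 50-base words with other genes, so reads may have been split between copies. Nr1i3 (CAR), the nuclear receptor that induces such enzymes, fell as well and spanned 2467 to 4766 (median 3176) in peritumoral liver and 619 to 1582 (median 1169) in tumors (-1.46 ± 0.22, adjusted p = 2.42e-05). The exception was Cyp1a1, an oxidase induced through the aryl hydrocarbon receptor, whose call rests on tumor 5.

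Transport and synthesis of bile acids fell in parallel: 8 of 19 genes were called lower and 1 higher, and 9 lay below the peritumoral range in all tumors (median -0.95). Cyp7a1, which starts bile acid synthesis, spanned 5402 to 18678 (median 10055) and 2085 to 3811 (median 3559.7) (-1.68 ± 0.29, adjusted p = 0.000102). Cyp8b1, which makes the cholic acid branch, spanned 2297 to 5699.9 (median 3383) and 977 to 1445 (median 1122) (-1.62 ± 0.2, adjusted p = 3.5e-06). The uptake carrier Slc10a1 (NTCP) spanned 7786 to 15305 (median 9272) in peritumoral liver and 2694 to 4473 (median 3533) in tumors, and the carrier Slco1b2 35855 to 54758 (median 43089) in peritumoral liver and 14151 to 18312 (median 15641) in tumors. The fitted difference of Slc10a1 was -1.51 ± 0.15 (SE) on the log2 scale, adjusted p = 1.94e-07. On the log2 scale Slco1b2 changed by -1.47 ± 0.12 (SE), adjusted p = 2.02e-08. Every one of these 4 was lower in each tumor than in any peritumoral library. Slc51b, an exporter of bile acids, was called higher at 1.91 ± 0.49 but was at 0.87 (adjusted p = 0.0587) without tumor 5.

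Hormone-set features of the male liver were the next group. Of 17 male-biased genes tested, 8 fell and none rose (median -1.06), and 10 were called lower without tumor 5. Elovl3, a fatty acid elongase, spanned 618 to 1371 (median 1039.7) in peritumoral liver and 185 to 430.5 (median 261) in tumors (-1.86 ± 0.22, adjusted p = 1.28e-06), and Nudt7, a peroxisomal coenzyme A hydrolase, 6369 to 10211 (median 7879) in peritumoral liver and 2778 to 3962 (median 3218) in tumors (-1.33 ± 0.11, adjusted p = 3.88e-08). Mup3, a major urinary protein of a family of near-copies (13.3% of its words shared), spanned 64868 to 157816 (median 108545) in peritumoral liver and 9592 to 56728 (median 39428) in tumors (-1.58 ± 0.27, adjusted p = 0.000107). Ghr, the growth hormone receptor through which the male pattern is imposed, spanned 13373 to 17134 (median 14125) in peritumoral liver and 5928 to 7697 (median 6779) in tumors, without overlap. Ghr differed by -1.09 ± 0.07 (SE) on the log2 scale, adjusted p = 2.94e-09. Igf1, the growth factor that the receptor induces, and Igfals, its carrier in blood, fell with it, at -1.3 ± 0.14, adjusted p = 5.7e-07 and -1.23 ± 0.17, adjusted p = 1.21e-05. The list of the growth hormone, STAT5 and IGF1 axis did not fall as a whole. Of its 17 genes tested 3 were called lower and 1, Igfbp1, higher (median -0.18), and at the adjusted p alone 4 were lower and 3 higher. Of 19 female-biased genes 2 rose and 3 fell, but without tumor 5, 4 were called higher and none lower, and 6 (31.6%) lay below the peritumoral range in tumor 5 alone, as did 8.71% of all genes. Cyp2a4, the steroid hydroxylase among them, spanned 2126 to 24711 (median 10835) and 50338 to 74558 (median 60935) (2.29 ± 0.68, adjusted p = 0.0112), and 38% of its words occur in other genes.

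Amino acid metabolism was lower over most of its list. All but 2 of 25 breakdown enzymes, 23, were lower at an adjusted p of at most 0.05, where 18.1% of all genes tested were, and 5 of them reached the fold minimum (median -0.84), and 14 lay below the peritumoral range in all tumors. Hpd, the tyrosine-degrading dioxygenase, spanned 20731 to 45944 (median 28026) in peritumoral liver and 8035 to 13492 (median 10459.8) in tumors (-1.47 ± 0.17, adjusted p = 1.2e-06). Among 20 urea cycle and periportal genes, Prodh (proline dehydrogenase) was the 1 called, at -1.55 ± 0.18, adjusted p = 9.8e-07, and 15 were lower at the adjusted p alone (median -0.76). Without tumor 5, 6 of the 20 were called lower. Cps1, which commits nitrogen to the cycle, was at -0.78 ± 0.19, adjusted p = 0.00249. G6pc, the last step of glucose release, spanned 6122 to 18301 (median 9233) in peritumoral liver and 2231 to 5447 (median 3765) in tumors (-1.38 ± 0.27, adjusted p = 0.000349). Of 18 hepatocyte transcription factors 4 fell, Esrrg, Nr1i3, Tbx3 and Onecut2, while Hnf4a (0.04 ± 0.1, adjusted p = 0.791) and Cebpa (-0.38 ± 0.1, adjusted p = 0.00306) were not called.

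The 10 largest shared decreases by the rule of no overlap and at least 100 normalized counts were Marco, Cyp2c37, Cyp2c29, Gm13775, Upp2, Elovl3, Hectd2os, Oat, Gm14097 and Cyp2c50. The largest belongs to a macrophage: Marco, a scavenger receptor of resident liver macrophages (Kupffer cells), spanned 148 to 684 (median 265) in peritumoral liver and 42.9 to 133 (median 68.2) in tumors (-2.04 ± 0.53, adjusted p = 0.0038). Upp2, uridine phosphorylase of the liver, spanned 7618 to 21625 (median 9807) and 2681 to 4004 (median 3242) (-1.86 ± 0.3, adjusted p = 5.48e-05). The list also holds 3 unnamed or antisense loci, Gm13775 at -1.91 ± 0.24, Hectd2os at -1.84 ± 0.29 and Gm14097 at -1.81 ± 0.29.

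**Figure D2:**
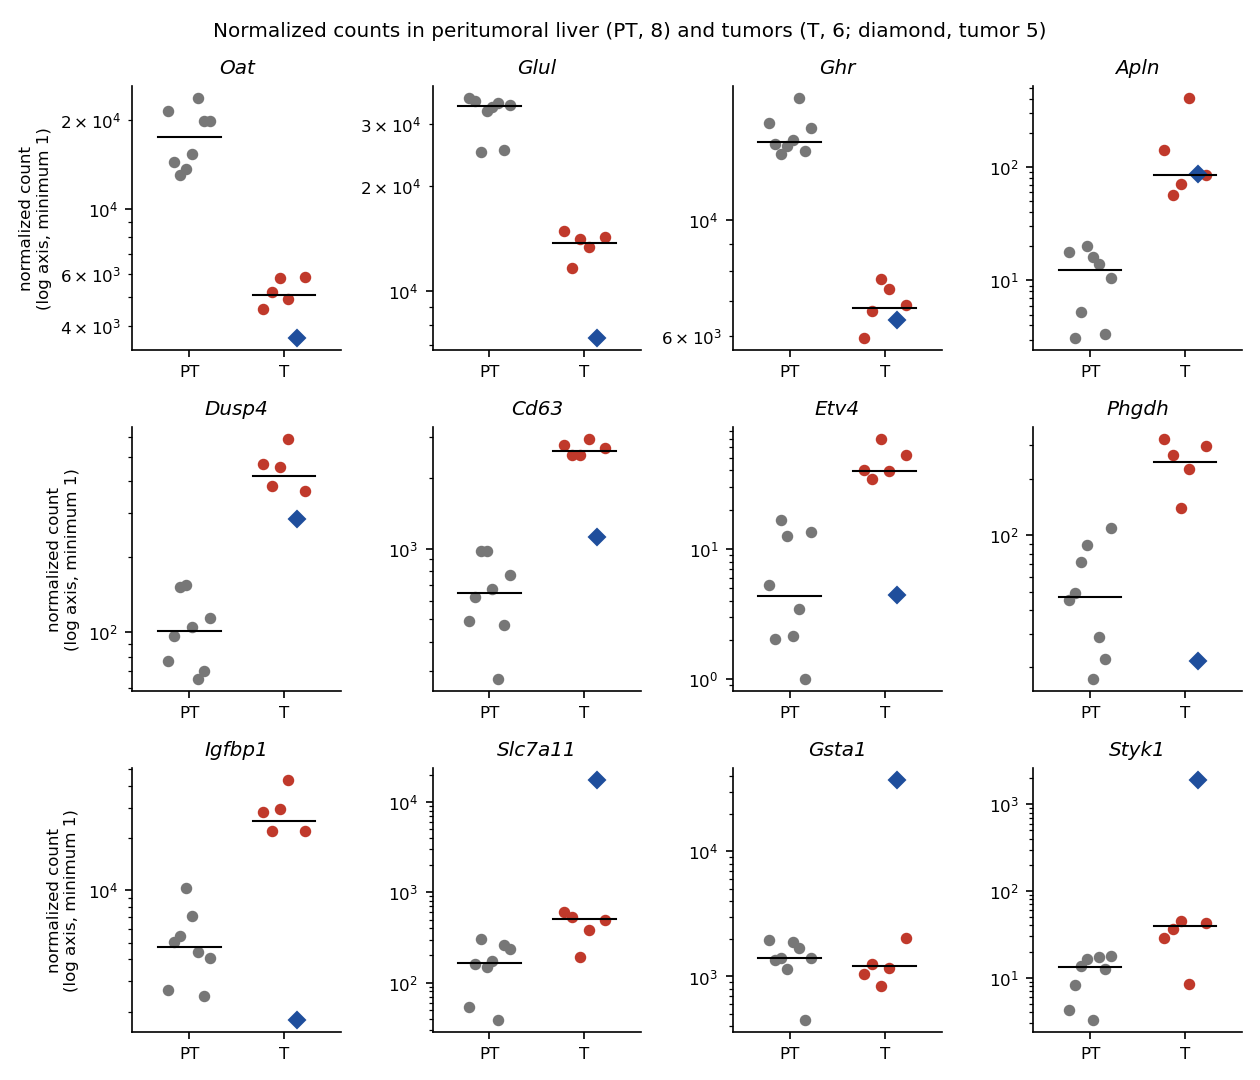
Normalized counts (log axes, values under 1 drawn at 1) of 12 genes in the 8 peritumoral (PT) and 6 tumor (T) libraries, with the median as a bar and tumor 5 as a diamond. In Oat, Glul, Ghr, Apln, Dusp4 and Cd63 all tumors lie beyond the peritumoral libraries, in Etv4, Phgdh and Igfbp1 tumor 5 is the exception, and in Slc7a11, Gsta1 and Styk1 tumor 5 stands far above the rest.

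Among genes higher in all 6 tumors, the largest increase was Apln (chrX:48025146-48034853), the peptide apelin of sprouting vessel tips. It spanned 3.08 to 20.2 (median 12.2) normalized counts in peritumoral liver and 57.3 to 409 (median 86.1) in tumors. The fitted difference of Apln was 3.65 ± 0.49 (SE) on the log2 scale, adjusted p = 7.24e-06. Tumor 4, at 409, and tumor 1, at 143, were more than 4-fold above the highest peritumoral library after 5 was added to each value. The other 9 were Elovl7, Arnt2, Lrtm2, Epdr1, Spink1, 5330417C22Rik, Calml4, Cyp2a4 and Ly6c1. Arnt2, a partner of basic helix-loop-helix transcription factors, spanned 3.47 to 35.6 (median 8.15) in peritumoral liver and 45 to 155 (median 111) in tumors (2.77 ± 0.57, adjusted p = 0.000603), and Calml4, a calmodulin-like protein, 20.3 to 80.6 (median 42.1) in peritumoral liver and 84.3 to 319 (median 219) in tumors (2.29 ± 0.39, adjusted p = 9.55e-05). Spink1, a secreted trypsin inhibitor, spanned 47.5 to 480.0 (median 173) and 744 to 1625 (median 1043) (2.38 ± 0.59, adjusted p = 0.00301). It is also a product of pancreas acinar cells, whose summed genes spanned 7.41 to 7429 CPM in peritumoral liver and 16.9 to 1884 in tumors, and their part in Spink1 was not tested. Elovl7, Lrtm2 and Epdr1 were above the peritumoral range in all tumors but highest by far in tumor 5: Elovl7, an elongase, was at 2655 there and at 225 to 316 in the other tumors, and its log2 fold change of 3.2 became 1.81 without tumor 5.

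Vessel genes were described by 2 lists. Of 15 genes of continuous and tumor vessel endothelium 6 rose and none fell (median 0.58), the same number with or without tumor 5. At the adjusted p alone 10 of the 15 were higher and 3 lower, where 19.5% and 18.1% of all genes were. Esm1, a secreted product of vessel tip cells, spanned 110.0 to 356 (median 257) in peritumoral liver and 524 to 1028 (median 714) in tumors (1.54 ± 0.21, adjusted p = 6.44e-06), and Cd34, a surface protein of capillaries, 116 to 295 (median 153) in peritumoral liver and 247 to 516 (median 352) in tumors (1.19 ± 0.17, adjusted p = 1.44e-05). Aplnr, the apelin receptor, stood at 2.05 to 9.26 (median 5.33) and 4.77 to 58.3 (median 23.3) (2.36 ± 0.58, adjusted p = 0.00275), low in counts and overlapping in tumor 2. Of 16 genes of the liver's own sinusoidal endothelium none rose and Rspo3 was the 1 that fell, and none was called without tumor 5. At the adjusted p alone 10 were lower (median -0.35), where 18.1% of all genes were. In all 6 tumors 5 (31.2%) lay below the peritumoral range, against 5.18% of all genes. The mean log2 CPM of this list, minus that of peritumoral liver, was -0.80 to -0.22 in tumors and -0.16 to 0.09 in peritumoral libraries. Stab2 and Lyve1, scavenger receptors of the sinusoid, were at -0.24 ± 0.1, adjusted p = 0.0604 and 0.08 ± 0.13, adjusted p = 0.675. Basement membrane collagen rose: Col4a1 spanned 1379 to 2147 (median 1861) and 2979.6 to 4981 (median 3631) (1.08 ± 0.15, adjusted p = 7.19e-06) and Col4a2 765 to 1303 (median 1062) and 1934 to 2856 (median 2290.2) (1.13 ± 0.12, adjusted p = 3.42e-07), both without overlap. They were 2 of the 4 genes called of 29 collagen and stellate cell genes, beside Tgfb2 and Lox. At the adjusted p alone 13 of the 29 were higher and 7 lower. In all 6 tumors 4 lay above the peritumoral range and 2 below it. Col1a1, the fibrillar collagen of scars, missed the fold minimum at 0.95 ± 0.22, adjusted p = 0.00176.

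Macrophage genes moved in opposite directions by list. Of 15 resident Kupffer cell markers, 7 fell and none rose (median -0.89), with the same count without tumor 5. Clec4f, a lectin found on Kupffer cells alone in the liver, spanned 1883 to 3472 (median 2467) in peritumoral liver and 892 to 1538 (median 1249.9) in tumors (-1.04 ± 0.15, adjusted p = 1.42e-05), and Timd4, the receptor of long-lived resident macrophages, 70.0 to 298 (median 179) in peritumoral liver and 25.8 to 85.4 (median 57.4) in tumors (-1.68 ± 0.28, adjusted p = 7.66e-05). Adgre1 (F4/80), which all liver macrophages carry, was not called, at -0.28 ± 0.26, adjusted p = 0.441. Of 16 markers of lipid-associated and recruited macrophages 4 rose and none fell (median 0.62), and 3 were called higher without tumor 5. In every tumor 4 genes of the list lay above the peritumoral range. Cd63, a lysosomal membrane protein, spanned 277 to 981 (median 648) in peritumoral liver and 1121 to 2935 (median 2605) in tumors (1.88 ± 0.27, adjusted p = 1.66e-05), and Spp1 (osteopontin) 1501 to 7666 (median 3625) in peritumoral liver and 7999 to 17782 (median 15178) in tumors (1.97 ± 0.27, adjusted p = 8.86e-06). Both are also made by epithelial cells. The more selective markers of such macrophages, Trem2 and Gpnmb, overlapped between tissues and were at 0.07 ± 0.27, adjusted p = 0.867 and 0.13 ± 0.44, adjusted p = 0.845.

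Fetal and progenitor genes rose in part. Of 17 oncofetal and imprinted genes 7 rose and none fell (median 0.53). Igf2bp3, a fetal RNA-binding protein, spanned 1.05 to 7.68 (median 3.79) in peritumoral liver and 8.33 to 61.2 (median 19.7) in tumors (2.62 ± 0.45, adjusted p = 0.000182). Afp, alpha-fetoprotein, spanned 92.6 to 1706 (median 510.2) and 1096 to 2612 (median 1813) (1.65 ± 0.45, adjusted p = 0.0057) and overlapped, with the highest peritumoral library above 3 tumors. Gpc3, a cell-surface proteoglycan used as a marker of liver cancer, was at 3741 to 6949.8 in 5 tumors and at 221 in tumor 5, against 151 to 2986 (median 677) in peritumoral liver (2.22 ± 0.61, adjusted p = 0.00617). Among the imprinted transcripts Rian and Meg3 rose (1.83 ± 0.41, adjusted p = 0.00114, and 1.5 ± 0.39, adjusted p = 0.00435), while Igf2 did not pass the test, at 0.39 ± 0.32, adjusted p = 0.366. Of 19 progenitor and bile duct genes 6 rose and none fell, and 5 were called higher without tumor 5. Sox4, a progenitor transcription factor, spanned 127 to 289 (median 198) in peritumoral liver and 415 to 1093 (median 511) in tumors (1.6 ± 0.2, adjusted p = 3.06e-06), and Ly6d 146 to 2357 (median 909) in peritumoral liver and 3019 to 5231 (median 3919) in tumors (1.89 ± 0.49, adjusted p = 0.00402), both without overlap. Sox9 (1.38 ± 0.22, adjusted p = 4.55e-05), Prom1 (1.92 ± 0.4, adjusted p = 0.000613) and Spp1, which bile duct cells also express, were among the 6 called, while Krt19 was at -0.96 ± 0.46, adjusted p = 0.109 and Epcam at 0.26 ± 0.35, adjusted p = 0.597. The largest change among the 6, Anxa13 (2.85 ± 0.79, adjusted p = 0.00639), rests on tumor 5, at 1075 there and 7.41 to 49.6 in the other tumors. It was at 8.2 to 54.4 in peritumoral liver, and its log2 fold change was -0.17 (adjusted p = 0.774) without tumor 5.

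Of 20 p53 targets and DNA damage genes 5 rose and none fell (median 0.42). Cdkn1a (p21), the inhibitor of cell cycle kinases, spanned 94.5 to 416 (median 282) and 472 to 967 (median 793) (1.45 ± 0.34, adjusted p = 0.00167), and Tnfrsf10b, the death receptor for TRAIL, 19.7 to 79.7 (median 33.6) and 141 to 206 (median 170.4) (2.0 ± 0.3, adjusted p = 2.54e-05). Ddit4l, an inhibitor of mTOR signalling, spanned 26.6 to 56.6 (median 38.8) in peritumoral liver and 78.4 to 183 (median 124) in tumors (1.62 ± 0.21, adjusted p = 3.63e-06). Mdm2, the p53-induced inhibitor of p53, was at 0.35 ± 0.08, adjusted p = 0.00161, below the fold minimum. Of 18 acute phase genes 2 rose (11.1%, against 4.81% of all genes) and 1 fell (5.56%, against 3.09%), with a median of -0.07. Orm3, an orosomucoid, was the 1 that fell (-1.4 ± 0.41, adjusted p = 0.00924). Lcn2, an iron-binding protein, was above the peritumoral range in all 6 tumors, at 452 to 5638 (median 1448) against 6356 to 14319 (median 8044) (2.15 ± 0.61, adjusted p = 0.00801).

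Cell division genes came next. Of 38 tested, 11 rose, 24 were higher at the adjusted p alone, where 19.5% of all genes were, and none were lower (median 0.79). Without tumor 5, 4 were called, and 12 (31.6%) lay above the peritumoral range in tumor 5 alone, against 9.35% of all genes. By the mean log2 CPM of the list, minus that of peritumoral liver, tumor 5 was highest at 1.25. Tumors 1, 3 and 6, at 0.35 to 0.68, were below the highest peritumoral library at 0.84. Among G1 cyclins, Ccne1 spanned 32.4 to 91.2 (median 43.8) and 107 to 231 (median 162) (1.68 ± 0.25, adjusted p = 2.32e-05) and was the 1 gene of the list without overlap, and Ccnd1 spanned 583 to 2303 (median 1218) and 1628 to 5011 (median 3701) (1.36 ± 0.25, adjusted p = 0.000181). Mitotic genes overlapped. Ccnb1, the cyclin that drives entry into mitosis, was at 22 to 68.5 (median 36.1) and 61.2 to 155 (median 99.2) (1.39 ± 0.31, adjusted p = 0.00116), Ccnb2 at 13.9 to 60.1 (median 33.5) and 58.9 to 121 (median 83.4) (1.29 ± 0.27, adjusted p = 0.000593), and Cdc20, which starts the exit from mitosis, at 17.4 to 54.5 (median 33.4) and 39 to 114 (median 65.9) (1.0 ± 0.34, adjusted p = 0.0234). The call of Cdc20 was lost in 8 of 19 alternative fits. Tumors 4 and 5 were highest in Ccnb1 and Ccnb2. Mki67, the proliferation marker, missed the fold minimum at 0.97 ± 0.28, adjusted p = 0.00959.

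Promoters of these mitotic genes are shown because members of the list are known to share the CCAAT box bound by NF-Y. RefSeq promoters (GRCm38.p6) were searched on both strands from 250 bases before to 50 after the start, and the 150 bases before the start are printed, with CCAAT and TTTGAA (the cell cycle homology region) matches in capitals. Of 30 cell cycle genes tested that had a promoter, 24 held CCAAT (80%) and 15 held TTTGAA (50%), where 41.1% and 20.2% of the 27025 genes of the table did. Ccnb1 (chr13:100786487-100786636, minus strand) holds CCAAT 99 and 67 bases before the start, Ccnb2 (chr9:70421555-70421704, minus strand) 87, 54 and 21 bases before it, and Cdc20 (chr4:118437344-118437493, minus strand) 53 and 8 bases before it with TTTGAA at 18.
Ccnb1: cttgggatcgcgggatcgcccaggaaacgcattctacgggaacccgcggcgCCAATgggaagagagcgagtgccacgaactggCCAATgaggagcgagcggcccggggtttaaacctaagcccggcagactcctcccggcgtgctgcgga
Ccnb2: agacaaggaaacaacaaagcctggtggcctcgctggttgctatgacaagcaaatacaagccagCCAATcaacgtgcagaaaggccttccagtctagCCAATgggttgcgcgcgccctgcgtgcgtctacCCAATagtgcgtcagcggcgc
Cdc20: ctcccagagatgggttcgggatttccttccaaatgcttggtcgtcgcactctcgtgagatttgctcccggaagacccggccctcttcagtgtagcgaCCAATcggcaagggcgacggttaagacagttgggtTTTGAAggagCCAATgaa
A match is a description of the letters and not a bound site.

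**Figure D3:**
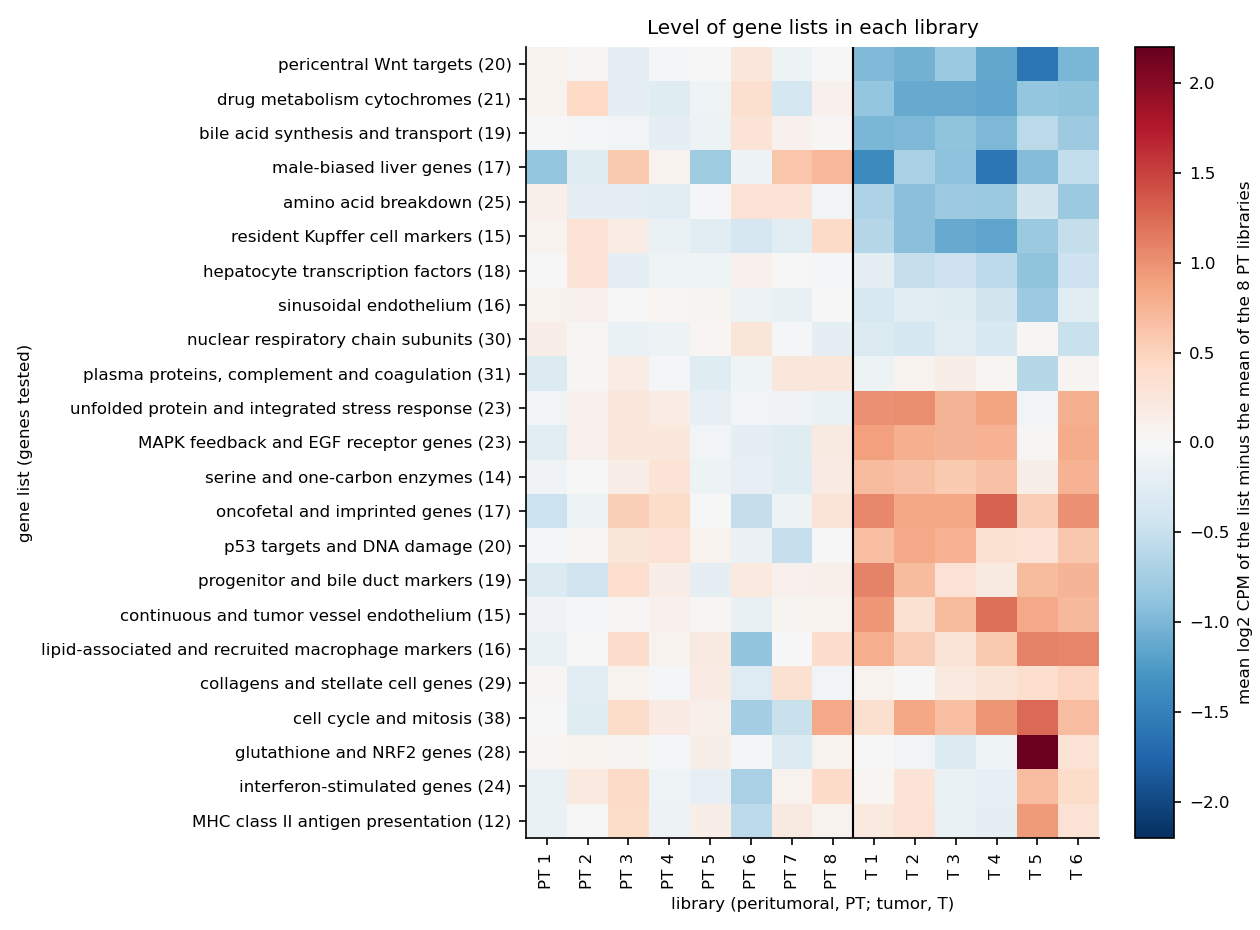
Mean log2 CPM of 23 gene lists in each of the 14 libraries, minus the mean of the 8 peritumoral libraries (red, higher; blue, lower). Pericentral, cytochrome and bile acid lists are lower in all 6 tumors, while the stress response, MAPK and serine lists are higher in 5 tumors and, by this mean, inside the peritumoral range in tumor 5, which is highest in the glutathione list at 2.16.

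Other genes held in some tumors and not in others, and tumor 5 was the exception more often than any other tumor. Counted after the values were seen, 973 genes (6.23% of those tested) lay above all peritumoral libraries in 5 tumors but not in tumor 5, whereas the same count for each other tumor as the exception was 37 to 105. Below the peritumoral range, tumor 5 was the exception for 520 genes (3.33%) and each other tumor for 40 to 129. Of the 343 genes called higher and above the range in exactly 5 tumors, tumor 5 was the exception in 275. Of the 80 called lower and below it in exactly 5, tumor 5 was the exception in 26 and each other tumor in 6 to 16.

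**Figure D4:**
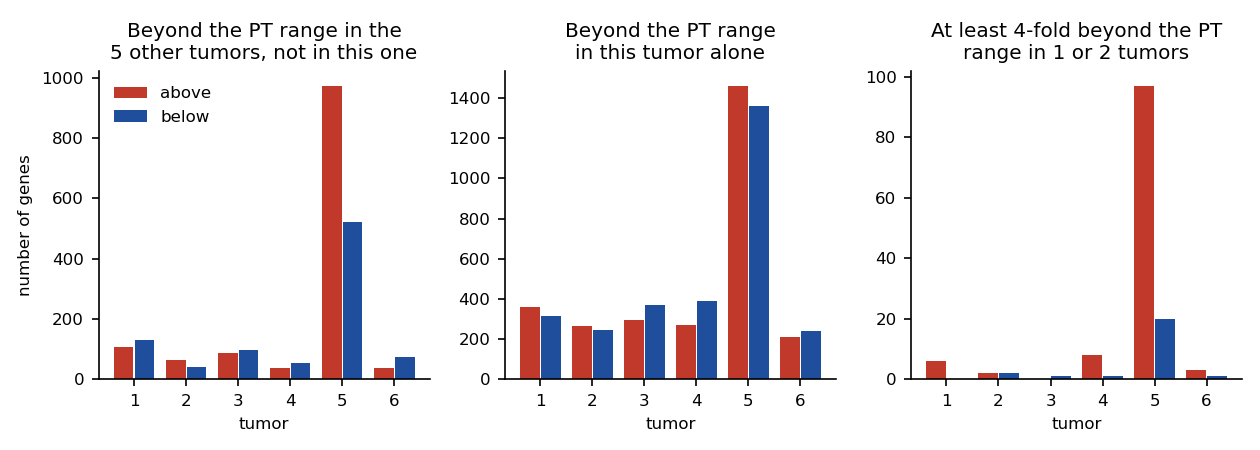
Numbers of genes by tumor, above (red) and below (blue) the range of the 8 peritumoral libraries: genes beyond it in the 5 other tumors but not in this one (left), in this tumor alone (middle), and at least 4-fold beyond it in 1 or 2 tumors (right). Tumor 5 has the highest bars in each panel, with 973 genes on the left, 1461 in the middle and 97 on the right above the range.

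Growth factor signalling was one group held by 5 tumors. Of 23 genes of MAPK feedback and the EGF receptor, 6 rose and none fell (median 0.55), and 10 (43.5%) were above the peritumoral range in the 5 tumors but not in tumor 5, against 6.23% of all genes. Etv4, an ETS factor induced by ERK (chr11:101769742-101785371), was at 40.4, 34.4, 69.4, 39.2, 4.42 and 52.5 in tumors 1 to 6 and at 0 to 16.8 (median 4.37) in peritumoral liver. On the log2 scale Etv4 changed by 2.48 ± 0.54 (SE), adjusted p = 0.000913. Dusp5, a phosphatase that switches off ERK in the nucleus, was at 329 to 592 in the 5 tumors, 81.8 in tumor 5 and 38.8 to 254 (median 115) in peritumoral liver (1.71 ± 0.38, adjusted p = 0.00117). Areg, the EGF receptor ligand amphiregulin, was at 33.3 to 72.7 in the 5, 14 in tumor 5 and 2.53 to 18.2 (median 8.92) in peritumoral liver (2.31 ± 0.41, adjusted p = 0.00014). Dusp4, a related phosphatase, was 1 of 3 members above the range in all 6, at 64.8 to 155 (median 101) against 282 to 589.8 (median 421) (2.02 ± 0.19, adjusted p = 6.74e-08), with tumor 5 the lowest of the tumors. Of 17 immediate early genes 2 rose, 4 without tumor 5, and 3 (17.6%) were above the range in the 5 tumors but not in tumor 5, while 5 (29.4%) lay below it in tumor 5 alone, against 8.71% of all genes. Egr1 was at 1916 to 2726 in the 5 tumors, 383 in tumor 5 and 277 to 1324 (median 642) in peritumoral liver (1.54 ± 0.34, adjusted p = 0.00119), and Btg2 at 2264 to 5165, 824 and 738 to 1929.8 (median 987) (1.46 ± 0.3, adjusted p = 0.000568).

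The unfolded protein and integrated stress responses, which slow protein synthesis and raise chaperones and amino acid supply, were similar. Of 23 genes, 7 rose and none fell, 10 were called without tumor 5, and 9 (39.1%) were above the range in the 5 tumors but not in tumor 5. In tumor 5 alone, 7 (30.4%) lay below the range, against 8.71% of all genes. Hspa5 (BiP), the main chaperone of the endoplasmic reticulum, was at 25850.4 to 49293 in the 5 tumors, 11099.6 in tumor 5 and 10396 to 24861 (median 13944) in peritumoral liver (1.06 ± 0.27, adjusted p = 0.00312). Trib3, a pseudokinase induced by Atf4, was at 844 to 1257 in the 5, 347 in tumor 5 and 125 to 369 (median 201) in peritumoral liver (2.06 ± 0.28, adjusted p = 9.07e-06). Ddit3 (CHOP) separated in all 6 tumors, at 79.3 to 154 (median 124) against 184 to 394 (median 309) (1.33 ± 0.17, adjusted p = 4.52e-06).

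Some serine enzymes were higher in the same tumors. Of 14 serine and one-carbon enzymes, 5 were called higher, with or without tumor 5, while the median log2 fold change was 0.08 and 2 lay below the range in the 5 tumors but not in tumor 5. Summed, the list was at 885 to 1334 CPM in peritumoral liver, 1387 in tumor 5 and a median of 803 over the 6 tumors. Phgdh, the first enzyme from glycolysis to serine, was at 139.8 to 324 in the 5 tumors, 21.4 in tumor 5 and 17.2 to 109.5 (median 47.2) in peritumoral liver (1.96 ± 0.45, adjusted p = 0.00145), with 47.8% of its words found in other genes. Psat1, the second, was at 855 to 990.2, 166 and 46.3 to 357 (median 135) (2.25 ± 0.46, adjusted p = 0.000565), and Aldh1l2, a mitochondrial folate enzyme, at 194 to 361, 32.4 and 19.3 to 91.2 (median 35.5) (2.45 ± 0.42, adjusted p = 8.69e-05). Psph, the last step, and Mthfd1l were above the range in all 6 tumors, at 1.09 ± 0.14, adjusted p = 4.55e-06 and 1.41 ± 0.22, adjusted p = 4.2e-05. Shmt2, which splits serine in mitochondria, went the other way in 5 tumors, 1934 to 2318 against 2425 to 3687 (median 3004) in peritumoral liver, without reaching the fold minimum (-0.4 ± 0.1, adjusted p = 0.00287).

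Among single secreted proteins, Ahsg (fetuin-A) was at 264547 to 382844 in the 5 tumors, 74639 in tumor 5 and 79962 to 170623 (median 133402) in peritumoral liver (1.14 ± 0.25, adjusted p = 0.000966), and Igfbp1, the stress-induced binding protein of insulin-like growth factors, at 22046 to 43342, 1780.0 and 2451 to 10334 (median 4735) (2.24 ± 0.44, adjusted p = 0.000415). Alb was at 2542449 to 3355747 in the 5 tumors and 637049.5 in tumor 5, where the peritumoral range was 783642 to 1723287 (median 1362927). Its log2 fold change, 0.89 over all tumors and below the fold minimum, was 1.09 without tumor 5 (edgeR adjusted p = 7.89e-06). Summed, 31 plasma protein, complement and coagulation genes took 80310 to 110300 CPM in peritumoral liver, 62320 in tumor 5 and up to 177100 in the other tumors, and 2 of them rose and 2 fell. Of the 31, 6 (19.4%) were above the range in the 5 tumors but not in tumor 5, against 6.23% of all genes, and 14 (45.2%) were below it in tumor 5 alone, against 8.71%. The mean level of the list in the 5 tumors lay inside the peritumoral range. Nuclear genes of the respiratory chain were lower in the 5 tumors: 27 of 30 were lower at the adjusted p alone, against 18.1% of all genes, none reached the fold minimum (median -0.31), and 14 (46.7%) lay below the peritumoral range in the 5 tumors but not in tumor 5, against 3.33% of all genes. The tumors' mitochondrial share of counts, given above, divided in the same way.

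Tumor 5 also carried a program of its own. It was the only tumor above the peritumoral range for 1461 genes (9.35%) and the only one below it for 1361 (8.71%), where each other tumor was alone for 210 to 360 and 238 to 390. The difference was larger for strong departures. Of all genes tested, 112 (0.717%) were at least 4-fold above the highest peritumoral library in just 1 or 2 tumors and 25 (0.16%) at least 4-fold below the lowest in 1, with 5 added to each value, and tumor 5 was among the tumors far above for 97 and far below for 20. Each other tumor had 0 to 8 far above and 0 to 2 far below. Of the 97, 69 were called higher with all tumors and 24 without tumor 5.

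Genes of glutathione and the oxidant response, which the factor NRF2 controls, were among those high in tumor 5. Of 28 tested, 7 rose and none fell with all tumors (median 0.46), but without tumor 5 the median was -0.19, 3 were called higher and 1 lower, and 12 (42.9%) were above the range in tumor 5 alone, against 9.35% of all genes. Slc7a11 (chr3:49892526-50443614), the cystine importer that feeds glutathione synthesis, was at 611, 536, 193, 383, 17509 and 488 in tumors 1 to 6 and at 38.2 to 307 (median 166) in peritumoral liver. Slc7a11 differed by 4.25 ± 0.9 (SE) on the log2 scale, adjusted p = 0.000749. Without tumor 5 it was at 1.36 (adjusted p = 0.0472). Gsta1, a glutathione transferase, was at 37229.7 in tumor 5, 838 to 2023 in the other tumors and 446 to 1942 (median 1397) in peritumoral liver. Its log2 fold change of 2.37 ± 0.75 (adjusted p = 0.0162) became -0.15 (adjusted p = 0.821) without tumor 5, and 90.5% of its words occur in other genes. Both subunits of the enzyme that starts glutathione synthesis were highest there: Gclc at 43961 in tumor 5, 7145 to 11256 in the others and 3716 to 9365 (median 8207) in peritumoral liver, and Gclm at 12814 against 4067 to 4537 and 5098 to 5988 (median 5740.1). Gclm was below the peritumoral range in the other 5 tumors. Nqo1, a quinone reductase, was at 3312 against 438 to 782 and 242 to 459 (median 379), and Txnrd1, thioredoxin reductase, at 7456 against 3018 to 3917 and 3164 to 3445 (median 3309). Srxn1, sulfiredoxin, was above the peritumoral range in all 6 tumors, at 1194 to 1882 (median 1611) against 2230.2 to 9233 (median 3077) (1.34 ± 0.32, adjusted p = 0.00201), and was at 0.91 (adjusted p = 0.0101) without tumor 5. Hmox1, heme oxygenase, was within the peritumoral range in tumor 5 at 967, against 513 to 1001 (median 672).

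Promoters of 3 members are shown for the antioxidant response element, whose core is TGACNNNGC, and for the related AP-1 site TGANTCA. Of 23 tested list genes with a promoter, 7 held TGACNNNGC (30.4%) and 4 TGANTCA (17.4%), against 14% and 8.97% of all genes of the table, and of 72 genes far above in tumor 5 with a promoter 16 held TGACNNNGC (22.2%). The 150 bases before each start are printed, with both motifs in capitals. Gclm (chr3:122245407-122245556, plus strand) holds the core 134 bases before the start, Abcc4 (chr14:118706220-118706369, minus strand) 25 bases before it, and Srxn1 (chr2:152105374-152105523, plus strand) holds TGANTCA 102 and 45 bases before it, with its core match after the start and so outside the stretch printed.
Gclm: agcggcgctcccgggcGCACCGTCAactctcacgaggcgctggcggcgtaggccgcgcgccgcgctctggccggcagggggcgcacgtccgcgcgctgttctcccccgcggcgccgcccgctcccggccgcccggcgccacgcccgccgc
Abcc4: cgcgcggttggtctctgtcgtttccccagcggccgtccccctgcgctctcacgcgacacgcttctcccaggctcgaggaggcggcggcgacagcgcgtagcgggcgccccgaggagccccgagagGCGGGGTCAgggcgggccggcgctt
Srxn1: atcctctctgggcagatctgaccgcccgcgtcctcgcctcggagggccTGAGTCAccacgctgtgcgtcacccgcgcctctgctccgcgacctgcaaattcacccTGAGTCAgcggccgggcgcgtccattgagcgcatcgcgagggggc
Abcc4, an exporter of conjugates, was at 8511 in tumor 5, 330.4 to 628 in the other tumors and 284 to 539 (median 356) in peritumoral liver.

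The other genes furthest out in tumor 5 were Styk1 and Il1f9 by the rule for named genes. Styk1, a membrane pseudokinase (chr6:131299142-131353597), was at 1904 there, 8.4 to 45.4 in the other tumors and 3.22 to 17.7 (median 13.1) in peritumoral liver, and Il1f9, the cytokine IL-36 gamma, at 2425 against 13.9 to 42.2 and 8.64 to 28.3 (median 15.7). Both were called higher with all tumors, at 4.86 ± 1.01 and 4.72 ± 1.0, and at 1.45 (adjusted p = 0.0728) and 0.51 (adjusted p = 0.323) without tumor 5. Chosen after their values were seen, Gpx2, the glutathione peroxidase of gut epithelium, was at 2023 in tumor 5 and 3.73 to 62.3 in the others, Ggt1, the enzyme that breaks down extracellular glutathione, at 1941 and 1.87 to 22 against 1.05 to 57.9 (median 7.94) in peritumoral liver, and Hkdc1, a hexokinase-like protein, at 575 and 33.4 to 43.9. High values also occurred outside tumors: a western-diet liver without DEN reached 655 for Ggt1, and control-diet livers with DEN reached up to 673 for Slc7a11 and 72.8 for Styk1. Cyp1a1 was at 1272 in tumor 5, 11.1 to 26.3 in the others and 14.4 to 33.6 (median 24.4) in peritumoral liver, so that its call of 3.18 ± 0.83 turned to -0.51 without it. Interferon and antigen presentation genes were highest in tumor 5 as well. Of 24 interferon-stimulated genes 9 (37.5%), and of 12 MHC class II genes 4 (33.3%), were above the range there alone, against 9.35% of all genes. No gene of either list was called over all tumors. Summed MHC class II genes were at 899 CPM in tumor 5 and at 185 to 420 in peritumoral liver.

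Chromosome medians of expression separated tumor 5 too. For each library, the median log2 difference from peritumoral liver over the genes of a chromosome with at least 100 normalized counts was set against the median of all such genes. In tumor 5 chromosome 4 was at -0.15 over 671 genes and chromosome 9 at -0.10 over 592, where peritumoral libraries spanned -0.01 to 0.02 and -0.01 to 0.01 and the other tumors at most 0.01 either side of 0. Divided in order into 4 parts of like gene number, chromosome 4 was at -0.45 in part 1 (chr4:3549041-58912749), at -0.29 in part 2 (chr4:58965439-116159849), and at 0.02 and 0.01 in parts 3 and 4. In part 1, 71.4% of 168 genes were below the peritumoral range in tumor 5, against 22% to 30.4% in the other tumors. On chromosome 9 part 1 (chr9:3335140-44640731) was at -0.32, with 61.5% of 148 genes below the range, against 17.6% to 20.3% in the others, and part 2 was at -0.12. Part 2 was also below the lowest peritumoral library in 4 other tumors on each chromosome: on chromosome 4 tumors 1, 2, 3 and 6 were at -0.09 to -0.06 against -0.05, and on chromosome 9 the same tumors were at -0.06 to -0.04 against -0.03. In all 6 tumors chromosome 15 was above the peritumoral range, but by little, at 0.02 to 0.08 against -0.02 to 0.01. Chromosome 13 was below it in 5 of 6 tumors, at -0.0756 to -0.0272 against -0.0267 to 0.0325, with tumor 5 inside the range at -0.0131. Chromosome 12 was below the range in tumors 1 and 5, at -0.0446 and -0.0685 against -0.0198 to 0.0146. In these tumors 30.2% and 39% of its genes were below the range. In parts 1 to 3 of chromosome 12 tumor 1 was lower than tumor 5 (-0.14 and -0.09 in part 3), and in part 4 it was higher (0.07 and -0.06). Copy number was not measured.

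**Figure D5:**
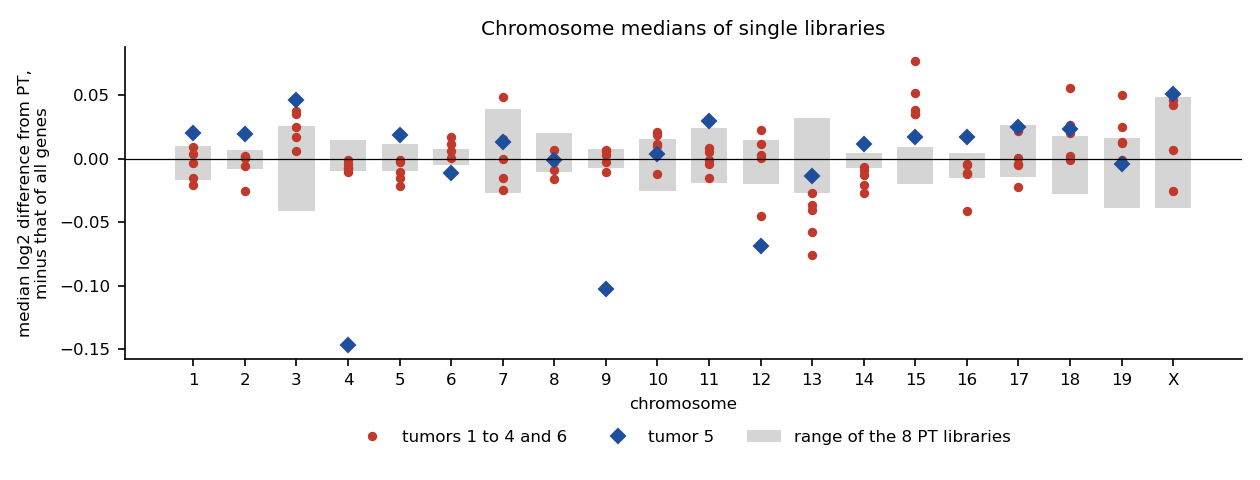
Median log2 difference of each tumor from peritumoral liver by chromosome, minus that of all genes, with the range of the 8 peritumoral libraries as grey bars. Tumor 5 (diamonds) is far below the rest on chromosomes 4 and 9, at -0.15 and -0.10, and chromosome 15 lies just above the grey bar in all 6 tumors.

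Departures in the other tumors were few and single. Tumor 4 led for Apln and for Xlr3b, an X-linked gene of a multicopy family (56.5% of its words shared), at 595 in tumor 4, 166 in tumor 6 and 0 to 26.8 in the others, against 3.08 to 58.6 (median 33) in peritumoral liver. Xlr3b was not called (2.06 ± 0.82, adjusted p = 0.0504). Tumor 6 led for Pak3, a kinase downstream of Rac, at 123 against 8.85 to 58.9 in the other tumors and 3.47 to 13.4 (median 7.13) in peritumoral liver (2.49 ± 0.4, adjusted p = 4.32e-05), and for Reg2, a product of pancreas acinar cells, which was at 228 in tumor 6, listed at 0 in the other 5 and at most 15.8 in peritumoral liver. The call of Reg2 (3.49 ± 1.35, adjusted p = 0.0445) rests on tumor 6, and the gene did not pass the filter on low counts without it. Summed acinar genes were also highest among the tumors in tumor 6, at 1884 CPM, and their part in Reg2 was not tested. Tumor 2 led for Ly6k, a surface antigen, at 273 against 2.8 to 33.5 in the other tumors. Ly6k was called higher (2.65 ± 0.83, adjusted p = 0.0148) but was at 0.66 (adjusted p = 0.509) without tumor 2. Tumor 2 also led for Bhlha15 (MIST1), a factor of secretory cells that include pancreas acinar cells (summed acinar genes 316 CPM in tumor 2), at 282 against 27.3 to 145 and 3.38 to 53.5 (median 25.2) in peritumoral liver (2.37 ± 0.56, adjusted p = 0.00192). Far below the peritumoral range were Pgk1-rs7 in tumor 3, listed at 0 against 159.9 to 1294 (median 792), Cfd (adipsin) in tumor 5 at 22.9 against 226 to 1405 (median 752), 2210418O10Rik in tumor 6 at 78 against 383 to 513 (median 456) (a DEN liver on the control diet was at 74.5), and Cyp2c37 in tumor 5 at 483. For Pgk1-rs7 and 2210418O10Rik all words (100%) occur in other genes, so their reads cannot be assigned with certainty.

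The remaining lists had few or no calls, where 4.81% of all genes tested were called higher and 3.09% lower. No gene was called among 12 B and plasma cell, 9 neutrophil, 12 MHC class II, 24 interferon-stimulated and 7 erythroid genes. Of 22 T and NK cell markers Themis was the 1 that fell (-1.12 ± 0.33, adjusted p = 0.0105), a T cell gene for which tumors 3, 4 and 5 lay inside the peritumoral range. Of 18 chemokines, Cxcl13 (1.41 ± 0.46, adjusted p = 0.0173) and Cxcl1 (1.12 ± 0.44, adjusted p = 0.0474) rose and Ccl24 (-1.04 ± 0.34, adjusted p = 0.0194) fell. The call of Cxcl1 was lost in 12 of 19 alternative fits (highest adjusted p 0.0898), that of Ccl24 in 6 and that of Cxcl13 in 2. In the clock list of 19 genes Npas2 was the 1 that rose (1.7 ± 0.41, adjusted p = 0.00222), and it lost the call in 1 of 19 alternative fits. Of the clock genes 6 (31.6%) lay below the peritumoral range in tumor 5 alone, against 8.71% of all genes. Among 16 Hippo targets Tead4 (1.56 ± 0.33, adjusted p = 0.000769) and Ajuba (1.34 ± 0.22, adjusted p = 5.43e-05) rose, and among 16 hypoxia and angiogenic genes Angpt2 (1.2 ± 0.2, adjusted p = 7.62e-05) and Pgf (1.7 ± 0.46, adjusted p = 0.00578). Of these 16 hypoxia and angiogenic genes 1 was called higher without tumor 5, and Pgf did not pass the filter on low counts there. Of 20 genes of metals and iron, the zinc importer Slc39a4 (1.41 ± 0.26, adjusted p = 0.000226) and Id1 (1.02 ± 0.25, adjusted p = 0.00287) rose and Hamp, the iron hormone hepcidin, fell (-1.3 ± 0.28, adjusted p = 0.000943). Id1 was no longer called in 7 of the 19 alternative fits. Of 16 matrix metalloproteinases and inhibitors Mmp13 rose (1.01 ± 0.32, adjusted p = 0.0161), and it was at 0.76 (adjusted p = 0.0589) without tumor 5. Cfd was the 1 of 9 adipocyte genes called, at -1.38 ± 0.5, adjusted p = 0.0326, and lost the call in 6 of the 19 alternative fits. Pgd, of the pentose phosphate pathway, was the 1 glycolytic or related gene of 28 to rise (1.2 ± 0.29, adjusted p = 0.00214), and was at 0.64 without tumor 5.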

How the data were processed

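mRNA libraries (KAPA mRNA HyperPrep) were made by the authors from 6 tumors and 8 peritumoral livers. Per the submitters' processing notes the tools were FastQC, STAR and RSEM with the GRCm38 build, and versions of STAR and RSEM are not given in the sources used here. The deposited files hold RSEM expected counts and, beside them, TPM that the authors computed per library. Expected counts were rounded to whole numbers. TPM entered only alternative settings.

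All 25 libraries in 5 groups were fitted together with edgeR 4.0.16 (R 4.3.3, TMM, filterByExpr with a minimum count of 10, quasi-likelihood test), with the contrast of tumor minus peritumoral liver. P-values were adjusted by Benjamini-Hochberg over 15625 genes of 48795. Called means an adjusted p of at most 0.05 and a log2 fold change of at least 1 in size. The study used DESeq2, which is an alternative here (1.42.0). On simulated data with 4-fold changes in 200 of 15317 genes, 196 were recovered (98%) and 3 others called. The changed genes were drawn from the more abundant ones, and every tumor was given the same change. The simulation thus does not cover smaller changes, genes with few counts or calls that rest on 1 tumor. Depth was 21530046 to 38074390 counts per library. Deviations of same-numbered tumor and peritumoral libraries correlated at -0.23 to 0.34, and tumor 4 had its highest correlation (0.34) with the library of its own number. The labels do not say that numbers mark shared animals, so numbers were not used as pairs in the main fit. Python 3.11.15, NumPy 2.4.6, pandas 2.3.3 and Matplotlib 3.10.9 made the rest.

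The members and the 41 gene lists were chosen with earlier results of these data known. Genes named are the 10 largest increases and decreases without overlap and with at least 100 normalized counts, the 8 higher and 4 lower genes furthest out in 1 or 2 tumors (at most 2 for each tumor and direction), up to 3 called members of each list, and members a sentence needs. Alternatives were another test, normalization, filter, fold minimum, set of libraries, pseudocount and unit, and each library left out.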

Additional observations from a re-analysis of the deposited data

Results flagged for a closer look

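Among the tumors, or among the peritumoral libraries, a sample was singled out where its gap to the nearest other sample exceeded the critical share of the group's range (Dixon's test). Of 334 groups of values examined, 51 held such a sample, where chance gives about 1 in 20, and 41 of the 51 were tumor 5. The groups share the same 14 libraries and are not independent, and some genes were named because they lay far out or were chosen after their values were seen, so the count cannot be read against that share.

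Tumor 5 was the sample apart with the highest tumor value, in normalized counts, for Elovl7 (2655), Styk1 (1904), Il1f9 (2425), Cyp1a1 (1272), Slc7a11 (17509), Gsta1 (37229.7), Slc51b (120.2), Pgd (6771), Nqo1 (3312), Gclm (12814), Abcc4 (8511), Txnrd1 (7456), Gclc (43961), Ggt1 (1941) and Hkdc1 (575). It was the sample apart with the lowest tumor value for Cyp2c29 (3191), Cyp2c50 (1644), Ahsg (74639), Mup3 (9592), Igfbp1 (1780.0), Aldh1l2 (32.4), Psat1 (166), Phgdh (21.4), Id1 (129.8), Gpc3 (221), Etv4 (4.42), Egr1 (383), Trib3 (347), Tead4 (22.9), Prom1 (156), Cd63 (1121), Cxcl13 (9.59), Cxcl1 (265), Glul (7318), Alb (637049.5), Hnf4a (8277), Dusp5 (81.8) and Stab2 (1255). In the same way its program score of 0.50 lay apart from the other tumors, as did its medians of chromosome 4 (-0.15) and chromosome 9 (-0.10).

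The other samples apart were Reg2 in tumor 6 (228), Pgk1-rs7 in tumor 3 (0), 2210418O10Rik in tumor 6 (78.0), Gsta1 in peritumoral library 7 (446), Gclm in peritumoral library 3 (5098), Gclc in peritumoral library 7 (3716), Alb in peritumoral library 7 (783642) and Cd34 in peritumoral library 7 (295), all in normalized counts, and the medians of chromosome 10 in peritumoral library 3 (-0.0255) and of chromosome 19 in peritumoral library 7 (-0.039). Reg2 was listed at 0 in the other 5 tumors.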

How the results depend on the processing

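The number of genes called was 1235, and it was 1221 with the DESeq2 Wald test, 1236 with DESeq2 size factors, 1355 with no filter on low counts and 1073 in a fit of the 14 libraries alone. Leaving out each library in turn gave 1114 to 1316 calls, 670 to 808 of them higher and 428 to 553 lower. A minimum mean of 100 normalized counts left 679 (420 higher, 259 lower), and no minimum fold gave 5884 (3050 higher, 2834 lower), both by their construction. Genes without overlap between tissues went from 1479 to between 1517 and 2972 with 1 library left out, the highest without tumor 5, where fewer samples must separate. Genes far out in 1 or 2 tumors went from 137 to 42 at 8-fold and 71 at a minimum of 500 counts. With genes of at least 500 counts the tumor 5 medians were -0.17 for chromosome 4 and -0.0834 for chromosome 9, and with called genes left out -0.12 and -0.11, and the cause was not tested. The tumor 5 score was 0.46 to 0.53 in its alternatives. Leaving out each library in turn gave log2 fold changes of -0.51 to 3.43 for Cyp1a1, -0.15 to 2.6 for Gsta1, -0.17 to 3.11 for Anxa13 and -0.80 to 4.79 for Ggt1, and in each the negative value was that without tumor 5. Of 156 named genes called, 104 kept the call in every alternative.

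The replicate number as a block in the fit of the 14 libraries gave 897 calls (515 higher, 382 lower), and 114 of 151 named genes called kept their call under the block. Of 43 counts of list members called, 16 moved by over 1.5 times under it: oncofetal genes called higher went from 7 to 3, glutathione and NRF2 genes from 7 to 2, male-biased genes called lower from 8 to 5 and Kupffer cell markers from 7 to 4. The labels do not say that numbers mark shared animals, and 1 of 6 tumors correlated best with the peritumoral library of its own number. Expected counts limit genes with few reads, and intervals over 14 libraries cover the spread between them alone.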
